A study of Homo sapiens with 12 samples.

Results

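The organic ion transporters described here are the genes of the SLC22, SLC47 and SLCO families, measured in 2 human pancreatic cancer cell lines and a cisplatin-resistant derivative of each. Members were the probe sets of the deposited value table that name exactly 1 gene symbol beginning with SLC22A, SLC47A or SLCO and a number. Where a gene had several probe sets, the one with the highest mean over the 12 arrays stood for it. This gave 34 of the 18417 genes tested, of which 20 are SLC22, 2 are SLC47 and 12 are SLCO genes. The 34 include a pseudogene, SLC22A20P, and an antisense RNA, SLCO4A1-AS1. SLC22A3 was not analysed here. The gene formerly named SLC22A18 now carries the symbol SLC67A1 and fell outside the rule.

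AsPC1 and BxPC3 are established lines of pancreatic ductal adenocarcinoma. AsPC1-R cells were kept in medium with 1.67 µM cisplatin and BxPC3-R cells in medium with 0.60 µM cisplatin, while the parental AsPC1 and BxPC3 cells were kept without the drug. All cells grew in medium with serum, were subconfluent at harvest, and the last passage of the derivatives before harvest was free of cisplatin. Each of the 4 groups had 3 arrays of total RNA. How the derivatives were selected, and whether each is 1 clone, is not given in the sources used here, and neither is whether the arrays of a group came from separate cultures. The p-values therefore measure the spread between these arrays, which may be technical.

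SLC22 proteins carry organic cations, zwitterions and anions across the plasma membrane, SLC47 proteins (the MATE exporters) push organic cations out in exchange for protons, and SLCO proteins (the OATPs) take up large organic anions such as bile acids, hormone conjugates, prostaglandins and many drugs. Most were described in kidney tubule, liver or intestine, where uptake on one face of the cell and export on the other move compounds through it. Cisplatin is a known substrate of the cation carrier SLC22A2 and of SLC47A1 in the kidney. The comparisons ask which of these carriers differ in RNA level between each resistant derivative and its parental line, whether the difference is the same in both lines, and how the lines differ from each other.

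All values are log2 intensities, so that a difference of 1 is a 2-fold difference in signal. A change was called at a Benjamini-Hochberg adjusted p under 0.05 in a limma fit across all genes. The 4 groups matched their labels as to line, AsPC1 or BxPC3. The check does not tell a derivative from its parental line. All 9 markers of ductal epithelium were above the dim level in each group, and SMAD4, which BxPC3 is known to lack, averaged 9.66 in AsPC1-R, 9.90 in AsPC1, 4.63 in BxPC3-R and 4.70 in BxPC3. One array differed from its group in a test picked with the values in view. Of the 50 genes by which AsPC1 most exceeded BxPC3-R, all 50 were highest on BxPC3 replicate 2 among the BxPC3 arrays, with a median excess of 0.83, so the calls that rest on BxPC3 were repeated without it, and the values are given below. Markers of other cell types moved in both derivatives. Endothelial markers were above the dim level for 1 of 5 genes in BxPC3-R and 3 of 5 in BxPC3, with array medians of 5.24 to 5.34 in BxPC3-R and 6.81 to 6.94 in BxPC3, and CDH5, the endothelial cadherin, fell by 2.67 (SE 0.15, adjusted p = 2.99e-08), or by 2.58 without BxPC3 replicate 2. In AsPC1-R, PECAM1 was the 1 of 5 endothelial markers called, up by 0.66 (adjusted p = 0.00292) to 6.35. Of 7 hepatocyte markers, SERPINA1 alone was called there, up by 1.35 (adjusted p = 0.000111), from 5.90 in AsPC1 to 7.24. Of 9 ductal markers, 1 rose and 2 fell in AsPC1-R, against 11.6% and 8.64% of all genes. In BxPC3-R 3 rose and 2 fell, with and without BxPC3 replicate 2, against 9.75% and 11%. The part of these markers in the results below was not tested.

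The dim level used as a guide was 6.23, the 95th percentile of the group means of 341 olfactory receptor genes, which these cells are not known to use. Different probe sets bind differently, so the level is a guide and levels are not ranked between genes. Of the 34 transporters, 17 (50%) had a group mean above 6.23 in at least 1 group, against 72.7% of all genes tested. The other 17 lay at or under it in every group. These are SLC22A2, SLC22A7, SLC22A8, SLC22A9, SLC22A10, SLC22A12, SLC22A14, SLC22A16, SLC22A24, SLC22A25, SLC47A2, SLCO1A2, SLCO1C1, SLCO2B1, SLCO4C1, SLCO5A1 and SLCO6A1. Many of the carriers known from kidney and liver are among them. Defining markers of those organs were mostly dim as well, with 2 of 5 proximal tubule markers above the level in every group and 2, 2, 1 and 2 of 7 hepatocyte markers above it in AsPC1-R, AsPC1, BxPC3-R and BxPC3.

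**Figure D1:**
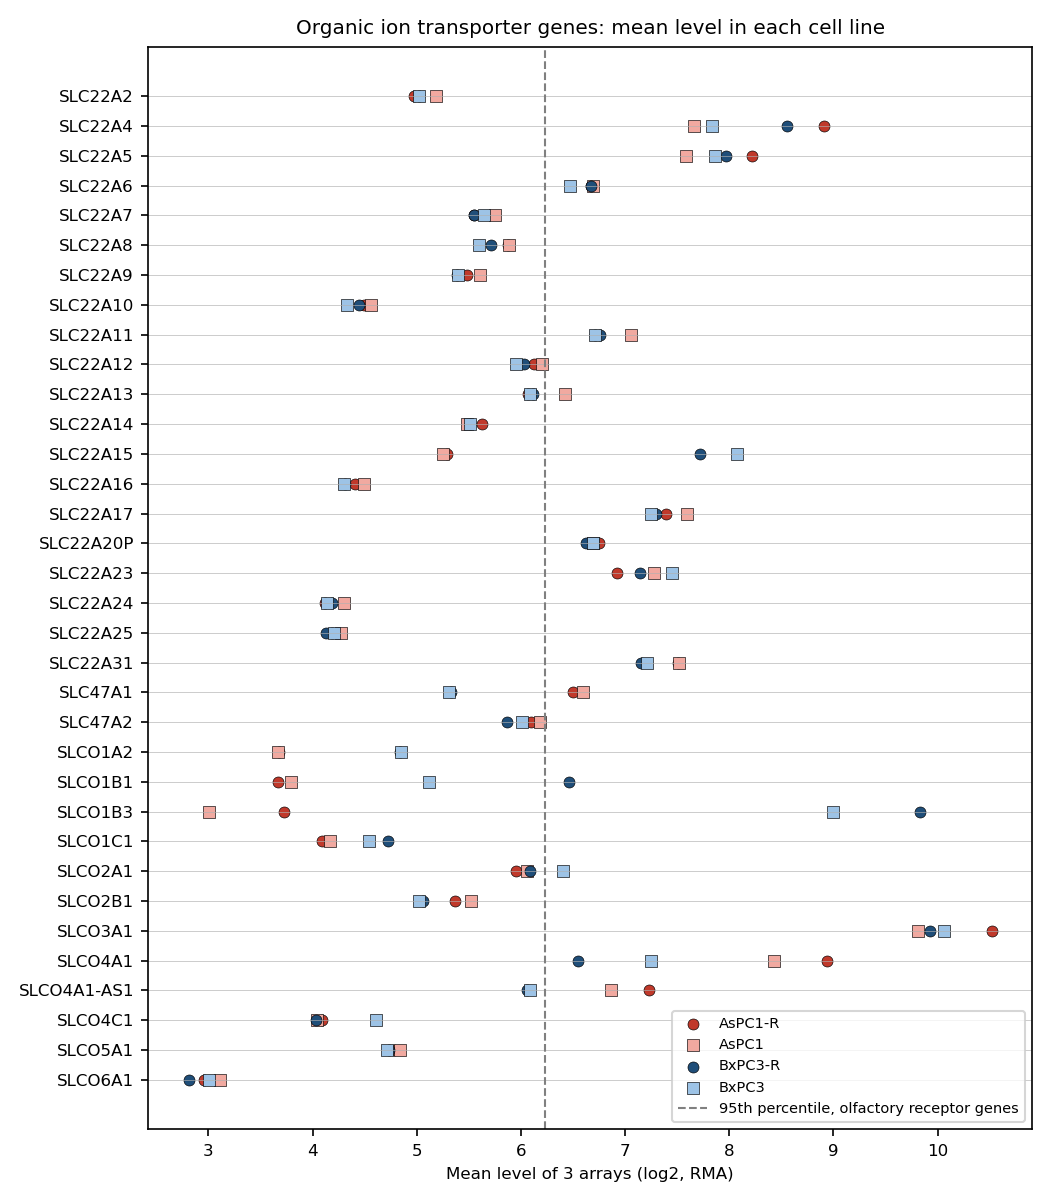
Group means of the 34 transporters in AsPC1-R, AsPC1, BxPC3-R and BxPC3, as log2 intensity, with 3 arrays behind each mean and the dim level of 6.23 marked by a dashed line. SLCO3A1 lay above 9.8 in all 4 groups, and SLCO1B3 lay at 9.83 in BxPC3-R and 9.0 in BxPC3 but at 3.73 in AsPC1-R and 3.01 in AsPC1.

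In AsPC1-R, 8 of the 34 transporters passed the test against AsPC1, 6 higher and 2 lower. That is 23.5%, against 20.3% of all genes, of which 11.6% were higher and 8.64% lower. In BxPC3-R, 8 passed against BxPC3, 3 higher and 5 lower, again 23.5%, against 20.8% of all genes, of which 9.75% were higher and 11% lower. Both shares lie near those of all genes. The arrays of the 2 groups did not overlap for 9 of 34 transporters in AsPC1-R, against 33.4% of all genes, and for 9 of 34 in BxPC3-R, against 38.2%. The median change was -0.07 over the transporters and -0.05 over all genes in AsPC1-R, and 0.00 over the transporters and 0.02 over all genes in BxPC3-R. The counts depended on single arrays. Without AsPC1-R replicate 2 the first count was 5, and without BxPC3 replicate 2, BxPC3-R replicate 2 or BxPC3-R replicate 3 the second was 5 each time. The 5 that stayed called without BxPC3 replicate 2 were SLC22A4, SLCO1B1, SLCO1B3, SLCO4A1 and SLCO4C1.

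Counting both derivatives, 12 transporters changed in at least 1 of them and 22 in neither. SLC22A4 and SLCO1B3 were higher and SLC22A23 was lower in both derivatives, while SLCO4A1 was higher in AsPC1-R and lower in BxPC3-R. Called in AsPC1-R alone were SLC22A5, SLC22A11, SLCO3A1 and SLCO4A1-AS1, and called in BxPC3-R alone were SLC22A15, SLCO1B1, SLCO2A1 and SLCO4C1. The change itself differed between the lines for 7 transporters, 5 of them more positive in AsPC1-R and 2 more positive in BxPC3-R, or 20.6%, against 25.4% of all genes (14.1% and 11.3%).

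**Figure D2:**
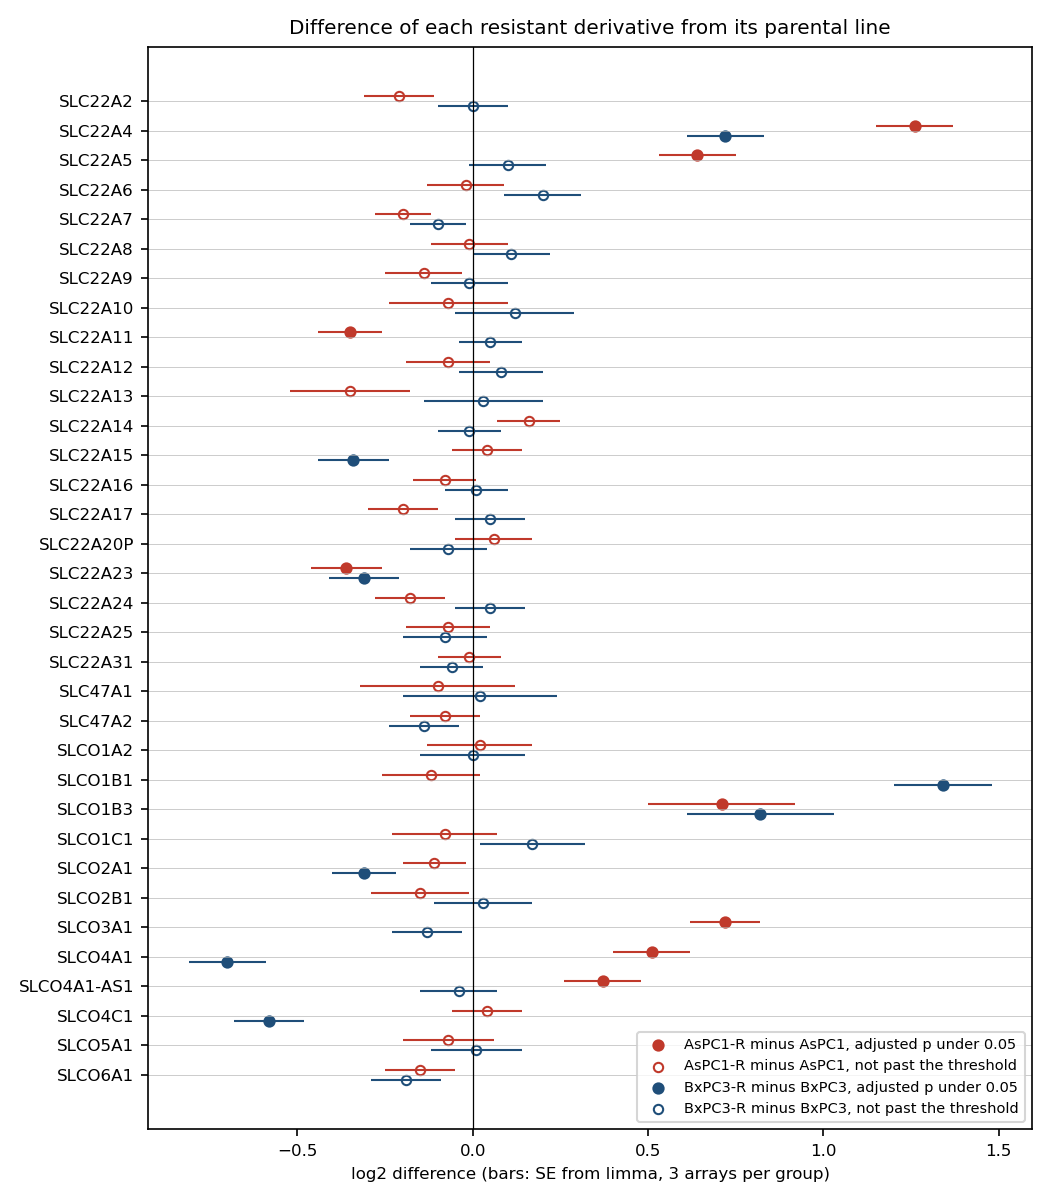
Log2 change of each of the 34 transporters in AsPC1-R against AsPC1 and in BxPC3-R against BxPC3, with the standard error of the limma fit on 3 arrays a group. SLC22A4 lies at 1.26 in AsPC1-R and SLCO1B1, dim in BxPC3, at 1.34 in BxPC3-R, and the 22 transporters called in neither derivative lie between -0.35 and 0.16 in AsPC1-R and between -0.19 and 0.20 in BxPC3-R.

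Among the cation and carnitine carriers, the clearest changes were in SLC22A4 and SLC22A5, neighbours on chromosome 5. SLC22A4 (OCTN1) is best known as the carrier of ergothioneine, a dietary antioxidant, and SLC22A5 (OCTN2) is the high-affinity carnitine carrier that feeds fatty acid oxidation. Their start regions are shown because the pair lies side by side and both rose in AsPC1-R while SLC22A4 alone passed the test in BxPC3-R. The sequences are 300 bases each from RefSeq on GRCh38.p14, 250 before and 50 after the annotated start, on the plus strand at chr5:132294144-132294443 for SLC22A4 and chr5:132369460-132369759 for SLC22A5. Capitals mark GC boxes, searched as GGGCGG on both strands, where overlapping matches were each counted.
SLC22A4: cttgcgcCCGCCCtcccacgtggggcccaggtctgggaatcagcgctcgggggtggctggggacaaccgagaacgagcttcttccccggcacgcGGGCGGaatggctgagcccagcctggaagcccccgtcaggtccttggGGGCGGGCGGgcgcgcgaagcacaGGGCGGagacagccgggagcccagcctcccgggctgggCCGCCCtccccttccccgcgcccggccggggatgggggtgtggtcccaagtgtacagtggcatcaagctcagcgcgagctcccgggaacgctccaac
SLC22A5: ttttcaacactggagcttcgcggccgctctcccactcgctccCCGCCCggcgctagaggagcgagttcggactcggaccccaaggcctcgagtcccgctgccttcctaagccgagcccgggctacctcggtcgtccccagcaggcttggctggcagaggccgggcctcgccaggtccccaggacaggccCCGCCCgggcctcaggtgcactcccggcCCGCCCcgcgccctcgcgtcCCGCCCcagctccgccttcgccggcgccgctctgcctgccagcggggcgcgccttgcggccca
The first window held 6 GC boxes at 73.3% G and C, and the second held 4 at 75.3%. GC boxes are common, with at least 1 in 45% of the 35116 windows of this length. Aligned end to end, the pair shared 184 bases, or 61.3% of 300, a share not set against that of unrelated windows.

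SLC22A4 measured 8.95, 8.83 and 8.96 on the AsPC1-R arrays, against 7.61, 7.75 and 7.62 on the AsPC1 arrays. In the other line it measured 8.57, 8.46 and 8.63 in BxPC3-R, against 7.57, 8.0 and 7.92 in BxPC3. Every array of each derivative lay above every array of its parental line. The increase was 1.26 (SE 0.11, adjusted p = 1.49e-06), or 2.39-fold, in AsPC1-R and 0.72 (SE 0.11, adjusted p = 0.000241), or 1.65-fold, in BxPC3-R. The increase in BxPC3-R was 0.81 without BxPC3 replicate 2 (adjusted p = 0.000262). The increase was larger in AsPC1-R by 0.53 (SE 0.15, adjusted p = 0.0192), or 0.45 without BxPC3 replicate 2 (adjusted p = 0.0499), a difference that did not pass without BxPC3 replicate 3 (adjusted p = 0.0519) or BxPC3-R replicate 2 (adjusted p = 0.0538).

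SLC22A5 measured 8.11, 8.14 and 8.40 in AsPC1-R, against 7.51, 7.59 and 7.64 in AsPC1. It rose by 0.64 (SE 0.11, adjusted p = 0.000763), or 1.56-fold, with no overlap. The BxPC3-R arrays gave 7.95, 7.94 and 8.01, against 7.63, 8.04 and 7.92 in BxPC3, which overlapped, with a change of 0.10 (SE 0.11, adjusted p = 0.606), or 0.19 without BxPC3 replicate 2 (adjusted p = 0.333). The change differed between the lines by 0.54 (SE 0.15, adjusted p = 0.019), by 0.45 without BxPC3 replicate 2 (adjusted p = 0.0493), and not without AsPC1-R replicate 3 (adjusted p = 0.0507).

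The kidney cation carrier SLC22A2 (OCT2) was dim, at 4.90, 5.02 and 5.0 in AsPC1-R, against 5.34, 5.0 and 5.22 in AsPC1, and at 5.09, 4.89 and 5.07 in BxPC3-R, against 5.05, 4.95 and 5.06 in BxPC3. SLC22A16, a carnitine and cation carrier described in testis, was also dim. It gave 4.32, 4.51 and 4.39 in AsPC1-R, against 4.47, 4.61 and 4.40 in AsPC1, and 4.23, 4.44 and 4.25 in BxPC3-R, against 4.36, 4.34 and 4.21 in BxPC3. Neither passed any of the 5 comparisons. SLC22A2 was, however, called lower in AsPC1-R without AsPC1 replicate 2, by 0.30 (adjusted p = 0.0376), and with array weights, by 0.31 (adjusted p = 0.0288). Without AsPC1 replicate 2 it was also called between AsPC1 and BxPC3 (adjusted p = 0.0349).

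SLC22A15, a carrier of zwitterions, separated the lines. The AsPC1-R arrays gave 5.14, 5.35 and 5.37 and the AsPC1 arrays 5.26, 5.34 and 5.15, all dim. The BxPC3-R arrays gave 7.71, 7.69 and 7.76 and the BxPC3 arrays 7.86, 8.20 and 8.14. AsPC1 was lower than BxPC3 (log2 difference -2.81, SE 0.10, adjusted p = 2.01e-11, or -2.75 without BxPC3 replicate 2), and AsPC1-R was lower than BxPC3-R (log2 difference -2.43, SE 0.10, adjusted p = 1.26e-10). Since the gene was dim in AsPC1-R and AsPC1, no fold is given. The fall in BxPC3-R against BxPC3 was small, at -0.34 (SE 0.10, adjusted p = 0.0267). It did not pass without BxPC3 replicate 2 (adjusted p = 0.113) or 3 (0.099), or without BxPC3-R replicate 1 (0.0772), 2 (0.0854) or 3 (0.0515).

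Among the organic anion carriers, SLC22A11 (OAT4), which carries steroid sulfates and urate in placenta and kidney, was the 1 member called in a derivative. It measured 6.72, 6.68 and 6.74 in AsPC1-R, against 7.16, 7.16 and 6.87 in AsPC1, and 6.81, 6.81 and 6.66 in BxPC3-R, against 6.79, 6.66 and 6.67 in BxPC3. The AsPC1 arrays were the highest, and the other groups lay together. SLC22A11 fell by 0.35 in AsPC1-R (SE 0.09, adjusted p = 0.0151), a call lost on leaving out AsPC1-R replicate 2 (adjusted p = 0.0537) or AsPC1 replicate 1 (0.0622) or 2 (0.0541), and with only these 2 groups in the fit (0.0569). The kidney carriers SLC22A6 (OAT1) and SLC22A8 (OAT3), the liver carrier SLC22A7 (OAT2), the urate exchanger SLC22A12 (URAT1) and SLC22A13 (OAT10), which carries nicotinate and urate, passed the test in neither derivative. Of these, SLC22A6 had group means of 6.67 in AsPC1-R, 6.69 in AsPC1, 6.67 in BxPC3-R and 6.47 in BxPC3. SLC22A13 averaged 6.07 ± 0.20 in AsPC1-R and 6.42 ± 0.37 in AsPC1 (SD, n = 3 each), a change of -0.35 (adjusted p = 0.158) that passed without AsPC1 replicate 3 (adjusted p = 0.0431).

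Among the remaining SLC22 members, SLC22A23, whose substrate is not settled, was the 1 called in a derivative. SLC22A23 measured 6.96, 6.85 and 6.95 in AsPC1-R, against 7.23, 7.39 and 7.22 in AsPC1, and 7.32, 7.13 and 6.96 in BxPC3-R, against 7.39, 7.40 and 7.55 in BxPC3. The derivative arrays lay below those of the parental line in both cases. It fell by 0.36 in AsPC1-R (SE 0.10, adjusted p = 0.0193) and by 0.31 in BxPC3-R (SE 0.10, adjusted p = 0.0363). On leaving out AsPC1-R replicate 2 the first call did not stand (adjusted p = 0.0754), nor on leaving out AsPC1 replicate 2 (0.0691). The second was lost without AsPC1-R replicate 1 (0.0501), BxPC3 replicate 1 (0.0552), 2 (0.0598) or 3 (0.143), or BxPC3-R replicate 2 (0.0977) or 3 (0.164), and also after another quantile normalization (0.0618) or median centring (0.0506). SLC22A17, described as a receptor for the iron-binding protein lipocalin 2, averaged 7.39 in AsPC1-R, 7.59 in AsPC1, 7.30 in BxPC3-R and 7.25 in BxPC3. SLC22A31 averaged 7.51 in AsPC1-R, 7.52 in AsPC1, 7.15 in BxPC3-R and 7.21 in BxPC3. The pseudogene SLC22A20P lay between 6.62 and 6.75, and SLC22A9, SLC22A10, SLC22A14, SLC22A24 and SLC22A25 were dim. None of these 8 passed in a derivative, though SLC22A17 was called lower in AsPC1-R without AsPC1 replicate 3 (adjusted p = 0.0469). SLC67A1, the former SLC22A18, averaged 7.97 in AsPC1-R, 8.11 in AsPC1, 7.53 in BxPC3-R and 7.81 in BxPC3, and passed in neither derivative.

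Neither exporter of the MATE family passed in a derivative. SLC47A1 (MATE1), which moves organic cations into urine and bile, gave 6.38, 6.65 and 6.46 in AsPC1-R, against 6.54, 6.67 and 6.60 in AsPC1, and 4.75, 5.62 and 5.63 in BxPC3-R, against 5.69, 4.84 and 5.40 in BxPC3. All AsPC1-R and AsPC1 arrays lay above all BxPC3-R and BxPC3 arrays. The lines differed by 1.29 between AsPC1 and BxPC3 (SE 0.22, adjusted p = 0.000284), or 1.05 without BxPC3 replicate 2 (adjusted p = 0.00139), and by 1.17 between AsPC1-R and BxPC3-R (SE 0.22, adjusted p = 0.00065). SLC47A2 (MATE2), its kidney counterpart, gave 6.14, 5.94 and 6.22 in AsPC1-R, against 6.07, 6.22 and 6.25 in AsPC1, and 5.91, 5.97 and 5.72 in BxPC3-R, against 5.92, 6.09 and 6.01 in BxPC3. It was dim in all groups.

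**Figure D3:**
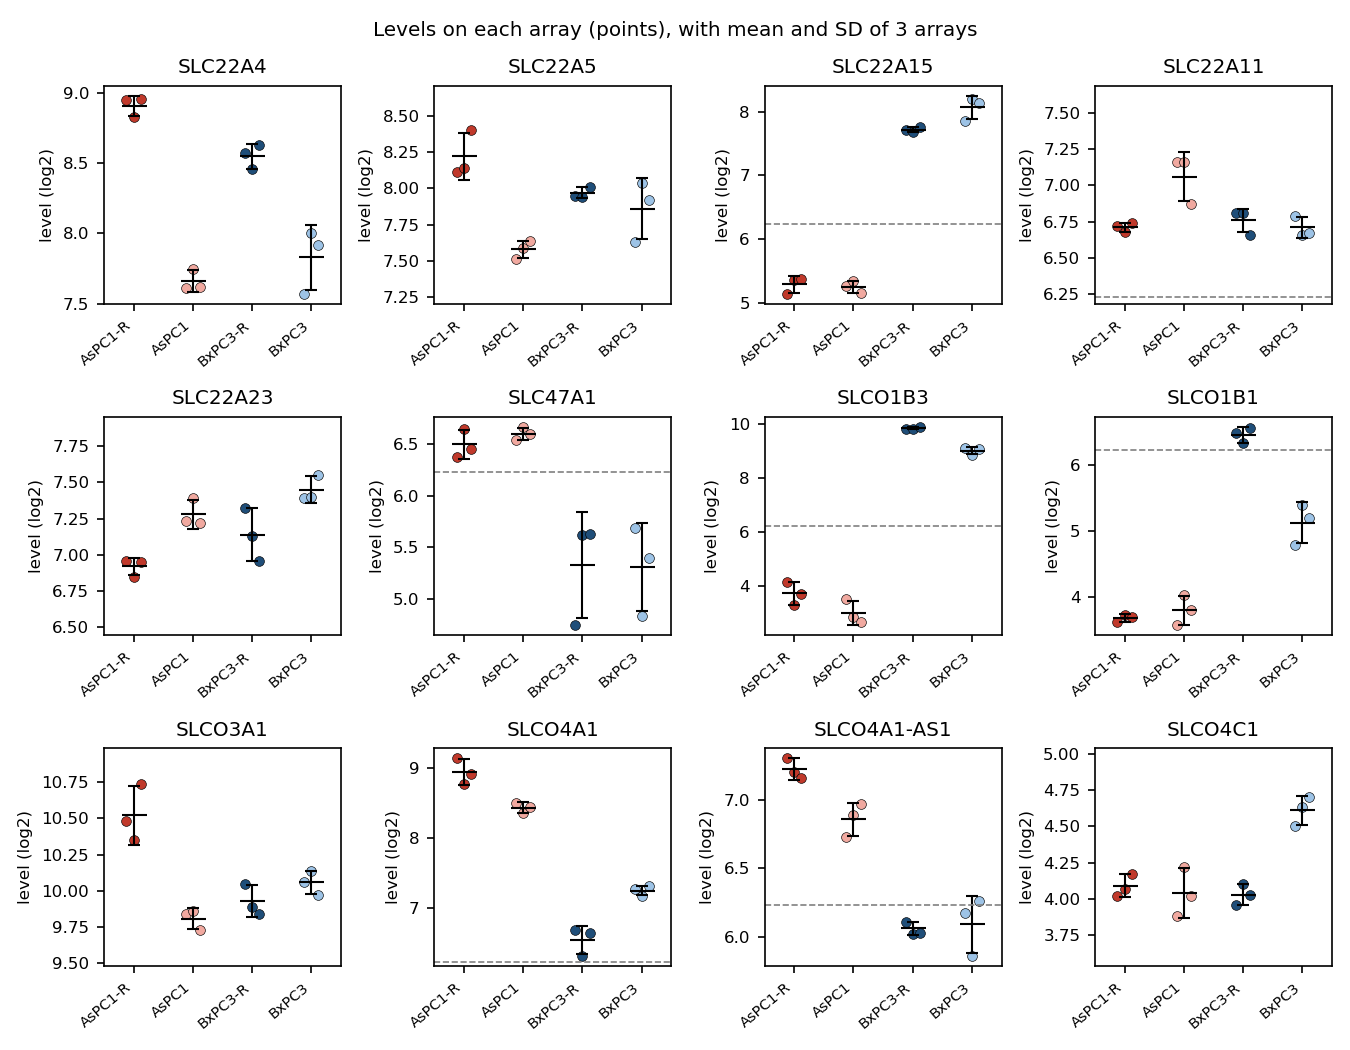
Log2 intensity of 12 transporters on each of the 12 arrays, with points for replicates and bars for group means, in the order AsPC1-R, AsPC1, BxPC3-R and BxPC3. SLC22A4 lies higher in both derivatives than in their parental lines, SLCO4A1 lies higher in AsPC1-R and lower in BxPC3-R, and SLCO4C1 lies under the dim level throughout.

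The SLCO1 genes form a group on chromosome 12, and 3 of its 4 measured members were lower in AsPC1 than in BxPC3. SLCO1B1 and SLCO1B3 encode the paired OATPs by which hepatocytes take up bilirubin, bile acids and statins, and SLCO1B3 also has a shorter form described in cancers of colon and pancreas. The probe sets were not resolved by transcript form here, and whether these cells use the annotated starts was not tested. The start regions of the pair are shown because both genes rose in BxPC3-R. They come from RefSeq on GRCh38.p14, plus strand, with 250 bases before and 50 after the annotated start, at chr12:20810455-20810754 for SLCO1B3 and chr12:21130944-21131243 for SLCO1B1. Capitals mark the interferon gamma activated sequence, searched as TTCNNNGAA, and GTTAAT, a core of sites bound by the hepatic factor HNF1, both searched on both strands.
SLCO1B3: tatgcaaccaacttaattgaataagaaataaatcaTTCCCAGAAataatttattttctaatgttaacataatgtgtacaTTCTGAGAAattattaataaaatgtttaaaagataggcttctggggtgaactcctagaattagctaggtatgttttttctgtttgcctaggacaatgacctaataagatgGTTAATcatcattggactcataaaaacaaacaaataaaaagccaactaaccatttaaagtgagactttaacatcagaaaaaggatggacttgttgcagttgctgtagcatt
SLCO1B1: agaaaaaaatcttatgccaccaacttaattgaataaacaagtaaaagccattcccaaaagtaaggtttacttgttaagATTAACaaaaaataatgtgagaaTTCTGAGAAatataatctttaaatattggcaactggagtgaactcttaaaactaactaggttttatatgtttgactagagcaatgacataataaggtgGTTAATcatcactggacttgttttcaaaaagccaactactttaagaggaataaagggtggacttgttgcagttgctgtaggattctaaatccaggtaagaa
The SLCO1B3 window held 2 activated sequences and 1 HNF1 core at 30% G and C, and the SLCO1B1 window held 1 activated sequence and 2 HNF1 cores at 31.3%. Over all windows, 7.66% held the first motif and 6.88% the second, and the median G and C content was 58.7%. Aligned end to end, the pair shared 221 bases, or 73.7% of 300, again without a share for unrelated windows. None of the 4 windows printed here held TGACNNNGC, the antioxidant response element, which 13.3% of all windows hold.

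SLCO1B3 measured 9.80, 9.80 and 9.88 in BxPC3-R, against 9.09, 8.86 and 9.07 in BxPC3. It was higher on every BxPC3-R array, by 0.82 (SE 0.21, adjusted p = 0.0118), or 1.77-fold, and by 0.75 without BxPC3 replicate 2 (adjusted p = 0.0478). In the other line it was far under the dim level, at 4.16, 3.30 and 3.72 in AsPC1-R, against 3.51, 2.87 and 2.66 in AsPC1. These groups overlapped. The increase of 0.71 in AsPC1-R (SE 0.21, adjusted p = 0.0271) was lost without AsPC1 replicate 2 (adjusted p = 0.0857) or 3 (0.092), without AsPC1-R replicate 1 (0.128) or 3 (0.0667), and with only these 2 groups in the fit (0.0804). The lines stood far apart. AsPC1 was lower than BxPC3 (log2 difference -5.99, SE 0.21, adjusted p = 1.5e-11, or -6.07 without BxPC3 replicate 2), and AsPC1-R was lower than BxPC3-R (log2 difference -6.10, SE 0.21, adjusted p = 1.77e-11). No fold is given against groups in which the gene was dim.

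SLCO1B1 measured 6.48, 6.33 and 6.56 in BxPC3-R, against 4.78, 5.39 and 5.20 in BxPC3. It rose by 1.34 (SE 0.14, adjusted p = 1.56e-05), to a mean just past the dim level in BxPC3-R, against a dim mean in BxPC3, so no fold is given. The increase without BxPC3 replicate 2 was 1.47 (adjusted p = 1.74e-05). In AsPC1-R the arrays gave 3.61, 3.72 and 3.69, against 3.57, 4.02 and 3.79 in AsPC1, all dim and overlapping, with a change of -0.12 (adjusted p = 0.596). The changes differed by -1.46 (SE 0.20, adjusted p = 0.000117), or -1.59 without BxPC3 replicate 2 (adjusted p = 6.39e-05). Whether the SLCO1B1 probes also bind SLCO1B3 RNA, which lay above the dim level on the same arrays, was not tested. SLCO1A2, which carries bile acids and drugs in brain vessels and bile ducts, averaged 3.68 in AsPC1-R, 3.67 in AsPC1, 4.84 in BxPC3-R and 4.85 in BxPC3. SLCO1C1, the thyroxine carrier of brain capillaries, averaged 4.09 in AsPC1-R, 4.17 in AsPC1, 4.72 in BxPC3-R and 4.54 in BxPC3. Neither passed the test in a derivative. Between the lines, SLCO1B1 was lower in AsPC1-R than in BxPC3-R (log2 difference -2.79, SE 0.14, adjusted p = 1.24e-09) and lower in AsPC1 than in BxPC3 (log2 difference -1.33, SE 0.14, adjusted p = 3.14e-06, or -1.19 without BxPC3 replicate 2), where both groups were dim.

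SLCO4A1 (OATP4A1), which carries thyroid hormones and steroid conjugates and is present in many epithelia, moved in opposite directions. It measured 9.14, 8.77 and 8.91 in AsPC1-R, against 8.50, 8.35 and 8.44 in AsPC1, and 6.69, 6.32 and 6.65 in BxPC3-R, against 7.27, 7.17 and 7.31 in BxPC3. No derivative array overlapped its parental line. The gene rose by 0.51 in AsPC1-R (SE 0.11, adjusted p = 0.00556), or 1.42-fold, and fell by 0.70 in BxPC3-R (SE 0.11, adjusted p = 0.000507), or 1.62-fold. The change was -0.73 without BxPC3 replicate 2 (adjusted p = 0.00149). The changes differed by 1.20 (SE 0.16, adjusted p = 7.81e-05), and the gap between the lines was 2.39 between AsPC1-R and BxPC3-R (SE 0.11, adjusted p = 5.26e-10), against 1.18 between AsPC1 and BxPC3 (SE 0.11, adjusted p = 8.86e-07). Without BxPC3 replicate 2 the changes differed by 1.24 (adjusted p = 0.000195) and the parental gap was 1.14 (adjusted p = 9.53e-06).

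Its antisense RNA SLCO4A1-AS1 gave 7.31, 7.21 and 7.16 in AsPC1-R, against 6.73, 6.89 and 6.97 in AsPC1, and 6.11, 6.02 and 6.03 in BxPC3-R, against 6.17, 5.86 and 6.26 in BxPC3. It was higher on all AsPC1-R arrays, by 0.37 (SE 0.11, adjusted p = 0.0237), and overlapped in BxPC3-R, with a change of -0.04 (adjusted p = 0.861). The difference of the changes did not pass (0.41, adjusted p = 0.0612), but passed without BxPC3 replicate 2 (0.52, adjusted p = 0.00997), where the change in BxPC3-R was -0.16 (adjusted p = 0.344), and without AsPC1 replicate 3 (adjusted p = 0.0422). On leaving out AsPC1-R replicate 1 (adjusted p = 0.094) or 2 (0.0581), or AsPC1 replicate 1 (0.0949), the increase in AsPC1-R no longer passed. The antisense RNA was also higher in AsPC1-R than in BxPC3-R, by 1.17 (SE 0.11, adjusted p = 4.52e-07), and higher in AsPC1 than in BxPC3, by 0.77 (SE 0.11, adjusted p = 3.16e-05), or 0.65 without BxPC3 replicate 2 (adjusted p = 0.000109). Whether the labelled material kept the strand of the RNA is not given in the labels, so signal of the gene and of its antisense partner cannot be told apart with certainty.

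SLCO3A1 (OATP3A1), a broadly present carrier of prostaglandins and thyroxine, measured 10.48, 10.35 and 10.74 in AsPC1-R, against 9.84, 9.86 and 9.73 in AsPC1. It rose on every array, by 0.72 (SE 0.10, adjusted p = 0.0002), or 1.64-fold. In BxPC3-R it gave 10.05, 9.89 and 9.84, against 10.06, 10.14 and 9.97 in BxPC3, which overlapped, with a change of -0.13 (SE 0.10, adjusted p = 0.462). The changes differed by 0.84 (SE 0.15, adjusted p = 0.000661). Without BxPC3 replicate 2 these were -0.09 (adjusted p = 0.733) and 0.80 (adjusted p = 0.00225).

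SLCO2A1, the prostaglandin transporter proper, lay near the dim level, at 6.15, 6.13 and 5.98 in BxPC3-R, against 6.42, 6.51 and 6.27 in BxPC3, and at 5.95, 5.88 and 6.01 in AsPC1-R, against 6.08, 6.16 and 5.93 in AsPC1. It fell by 0.31 in BxPC3-R (SE 0.09, adjusted p = 0.0256), a call lost without BxPC3 replicate 1 (adjusted p = 0.0703) or 2 (0.105) or without BxPC3-R replicate 2 (0.0538) or 3 (0.111). SLCO4C1, the kidney OATP that carries digoxin, was dim everywhere, at 3.96, 4.10 and 4.03 in BxPC3-R, against 4.50, 4.63 and 4.70 in BxPC3, and at 4.02, 4.07 and 4.17 in AsPC1-R, against 3.88, 4.22 and 4.02 in AsPC1. Its fall of 0.58 in BxPC3-R (SE 0.10, adjusted p = 0.000618, and -0.57 without BxPC3 replicate 2) was not called over the mean of its 2 probe sets (adjusted p = 0.0658), of which the second averaged 3.66 in BxPC3-R and 3.95 in BxPC3. SLCO2B1, SLCO5A1 and SLCO6A1 were dim, with group means of 5.02 to 5.52, 4.71 to 4.84 and 2.81 to 3.11, and passed in neither derivative. In such whole-culture RNA, fewer cells that express a gene and less of its RNA per cell cannot be told apart.

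The lines themselves differed in more transporters than the derivatives did. AsPC1 differed from BxPC3 in 15 of 34, 8 higher and 7 lower, or 44.1%, against 50.6% of all genes (27.7% higher and 22.9% lower), and the arrays did not overlap for 18 of 34, against 54.3%. AsPC1-R differed from BxPC3-R in 11 of 34, 6 higher and 5 lower, or 32.4%, against 43.3% of all genes (21.3% higher and 22% lower), and the arrays did not overlap for 15 of 34, against 55.4%. Besides the members described above, AsPC1 was higher in SLCO2B1 (0.50, adjusted p = 0.00769), SLC22A11 (0.36, adjusted p = 0.00544), SLC22A17 (0.35, adjusted p = 0.0132), SLC22A31 (0.31, adjusted p = 0.0104) and SLC22A8 (0.30, adjusted p = 0.0358), and lower in SLCO1A2 (-1.18, adjusted p = 1.4e-05), SLCO4C1 (-0.57, adjusted p = 0.000235), SLCO2A1 (-0.34, adjusted p = 0.00705) and SLC22A5 (-0.28, adjusted p = 0.043). Without BxPC3 replicate 2, 12 of the 15 stayed called, and SLC22A5, SLC22A8 and SLC22A31 did not. SLCO1A2 then differed by -1.10 (adjusted p = 0.000121), SLCO4C1 by -0.56 (0.00124), SLCO2B1 by 0.44 (0.0343), SLC22A11 by 0.33 (0.0214), SLC22A17 by 0.34 (0.038) and SLCO2A1 by -0.29 (0.0352). Over the mean of its probe sets SLCO4C1 differed by -0.36 and was not called (0.067). Several of the small differences hung on single arrays or settings. SLC22A31 was not called without BxPC3 replicate 2 (adjusted p = 0.05), SLC22A17 not without AsPC1 replicate 2 (0.0559) or BxPC3 replicate 3 (0.0612), SLC22A8 not without AsPC1 replicate 2 (0.151) or 3 (0.0576) or BxPC3 replicate 2 (0.153), and SLC22A5 not without any 1 of 8 arrays, with adjusted p from 0.0502 to 0.182, the highest without BxPC3 replicate 2. SLC22A8 was also lost with array weights (0.15, adjusted p = 0.195), the trended robust prior (0.0515) and only these groups in the fit (0.0836), and SLC22A5 after another quantile normalization (0.104), median centring (0.0577) and with only these groups in the fit (0.0851). Conversely, 6 others (SLC22A2, SLC22A4, SLC22A6, SLC22A13, SLCO1C1 and SLCO3A1) were called between AsPC1 and BxPC3 on leaving out 1 array. Between the derivatives, AsPC1-R was also higher in SLCO3A1 (0.60, adjusted p = 0.000259), SLC22A31 (0.36, adjusted p = 0.00422) and SLC22A4 (0.36, adjusted p = 0.0137, and 0.0619 without BxPC3-R replicate 2). It was lower in SLCO1A2 (-1.16, adjusted p = 1.62e-05) and SLCO1C1 (-0.63, adjusted p = 0.00293). No transporter was called higher in one of these 2 comparisons and lower in the other.

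**Figure D4:**
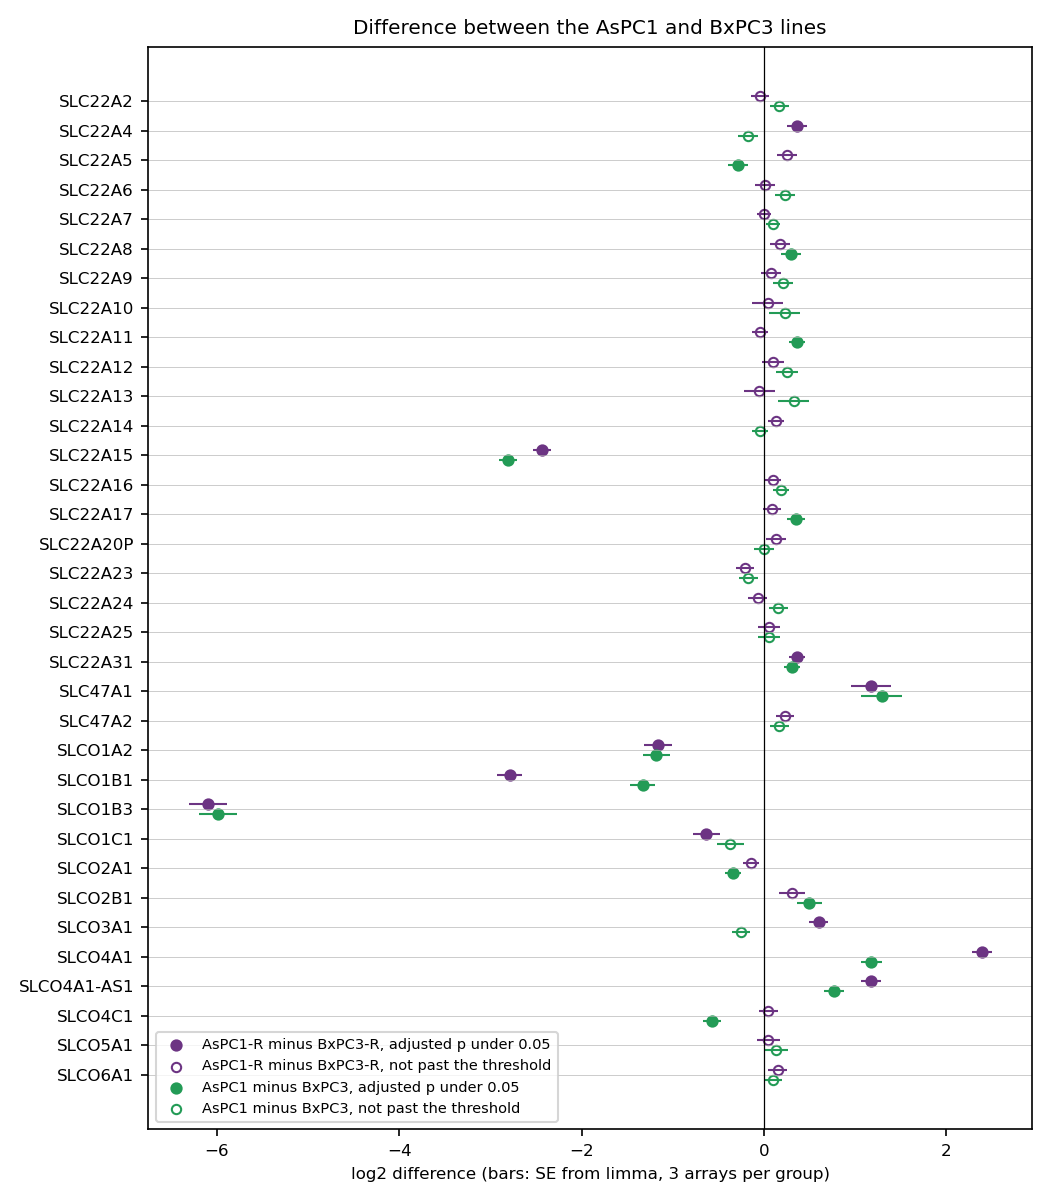
Log2 difference of each of the 34 transporters between the derivatives (AsPC1-R minus BxPC3-R) and between the parental lines (AsPC1 minus BxPC3), with standard errors of the limma fit. SLCO1B3 lies near -6 in both comparisons, and SLCO4A1 lies at 2.39 between the derivatives and at 1.18 between the parental lines.

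Genes beside the transporters were read next, taking the 4 measured genes on each side in RefSeq order, a choice made after the values were seen. On chromosome 5, P4HA2, a collagen prolyl hydroxylase near SLC22A4, rose by 1.73 in AsPC1-R (SE 0.11, adjusted p = 7.19e-08) and fell by 0.54 in BxPC3-R (adjusted p = 0.00264), or by 0.48 without BxPC3 replicate 2 (0.0147). IRF1, an interferon-regulated transcription factor on the SLC22A5 side, rose by 0.66 in AsPC1-R (adjusted p = 0.00284) and fell by 0.62 in BxPC3-R (adjusted p = 0.00389), or by 0.58 without that array (0.0176). The other 6 flanking genes passed in neither derivative. Around the SLCO1 group on chromosome 12, 4 of 8 flanking genes rose in BxPC3-R and none fell, against 9.75% and 11% of all genes. These were RECQL, a DNA helicase (0.51, adjusted p = 0.000388), GOLT1B (0.42, adjusted p = 0.028), PYROXD1 (0.36, adjusted p = 0.0222) and PLEKHA5 (0.25, adjusted p = 0.0192). Without BxPC3 replicate 2 only RECQL (0.52, adjusted p = 0.00168) and PLEKHA5 (0.26, adjusted p = 0.0478) were called, and RECQL alone was called with any 1 array left out. In AsPC1-R none rose and 2 fell, against 11.6% and 8.64% of all genes, PYROXD1 by 0.68 and PLEKHA5 by 0.55.

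Beside SLCO3A1 on chromosome 15, VPS33B (0.65) and CHD2 (0.39) rose in AsPC1-R. SV2B (-0.70) and CHD2 (-0.33) fell in BxPC3-R, or by 0.58 and 0.32 without BxPC3 replicate 2. SV2B was dim in every group, at 4.18 in BxPC3-R and 4.89 in BxPC3. Of the 7 genes around SLCO4A1 on chromosome 20, NTSR1, the neurotensin receptor, fell by 0.60 in AsPC1-R (adjusted p = 0.0113, and 0.057 without AsPC1 replicate 1) and none passed in BxPC3-R. NTSR1, like SLCO4A1, was higher in AsPC1-R than in BxPC3-R (2.11, adjusted p = 4.09e-08) and in AsPC1 than in BxPC3 (2.62, adjusted p = 3.3e-09, or 2.82 without BxPC3 replicate 2). Beside SLCO4C1 on chromosome 5, PAM (-0.62, adjusted p = 6.33e-05) and FAM174A (-0.34, adjusted p = 0.0437) fell in BxPC3-R, of which PAM alone was called without BxPC3 replicate 2 (-0.60, adjusted p = 0.000449). In AsPC1-R, PPIP5K2 (-0.40, adjusted p = 0.00269) and PAM (-0.30, adjusted p = 0.0144, up to 0.0608 with 1 array left out) fell there. Of the 8 genes beside SLC22A15 on chromosome 1, 3 were lower in AsPC1-R than in BxPC3-R and 2 lower in AsPC1 than in BxPC3, against 22% and 22.9% of all genes, while none and 2 were higher, against 21.3% and 27.7%. TSPAN2 averaged 5.73 in AsPC1-R, 5.35 in AsPC1, 8.49 in BxPC3-R and 8.91 in BxPC3, a difference of -2.75 between AsPC1-R and BxPC3-R (adjusted p = 1.01e-09) and of -3.57 between AsPC1 and BxPC3 (adjusted p = 4.76e-11). VANGL1 differed by -1.37 (adjusted p = 1.51e-08) between the derivatives and -0.41 (adjusted p = 0.00166) between the parental lines. NHLH2, dim in every group, differed by -0.56 (adjusted p = 0.00696) between the derivatives.

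**Figure D5:**
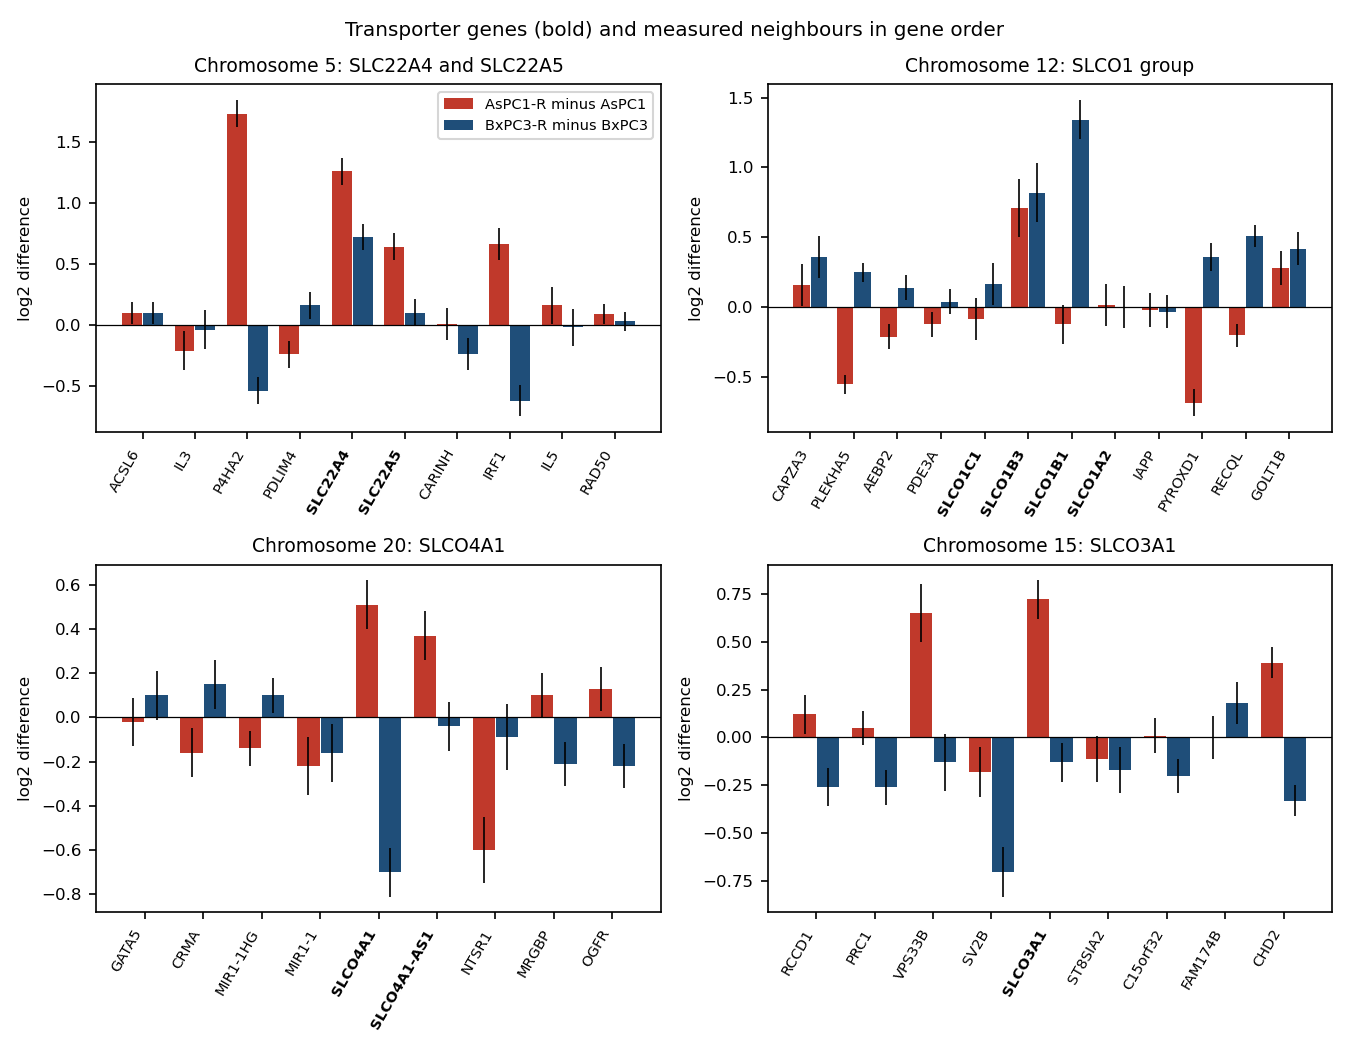
Log2 change in AsPC1-R against AsPC1 and in BxPC3-R against BxPC3 of the transporters and the measured genes beside them in RefSeq order at 4 loci, with standard errors of the limma fit and distances not to scale. P4HA2 and IRF1 lie above 0 in AsPC1-R and below it in BxPC3-R, whereas SLC22A4 lies above 0 in both.

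Genes that share substrates with the transporters were described by counts, to be read against 11.6% of all genes higher and 8.64% lower in AsPC1-R, and 9.75% higher and 11% lower in BxPC3-R. The calls of BxPC3-R genes named with values below stood without BxPC3 replicate 2. Without that array the counts of genes that rose and fell in BxPC3-R were 1 and 2 for the carnitine list, 1 and 1 for the efflux pumps, 0 and 1 for the monoamine list and 0 and 2 for the transcription factors, and for the other lists they were as given below. Of 14 carnitine and fatty acid oxidation genes, 1 rose and 2 fell in AsPC1-R, and 1 rose and 4 fell in BxPC3-R. SLC25A20, which carries acylcarnitine into mitochondria, rose by 0.67 in AsPC1-R (adjusted p = 0.0111, up to 0.0608 on leaving out AsPC1-R replicate 2 or AsPC1 replicate 1), and ACADM, a medium-chain dehydrogenase, fell by 0.36 (adjusted p = 0.00599). TMLHE, the first enzyme of carnitine synthesis, fell by 0.56 in BxPC3-R (adjusted p = 0.000248), and CROT, a peroxisomal transferase, rose by 0.42 (adjusted p = 0.0012). Of 10 efflux pumps of organic ions, 4 rose and 1 fell in AsPC1-R, and 2 rose and 3 fell in BxPC3-R. In AsPC1-R the multidrug resistance proteins ABCC4, ABCC3 and ABCC2 rose by 1.30 (adjusted p = 5.94e-07), 0.69 (adjusted p = 0.000112) and 0.64 (adjusted p = 0.00414). ABCC4 was dim in AsPC1, at 5.40. In BxPC3-R, ABCC3 fell by 0.96 (adjusted p = 5.84e-06). ABCC4 rose there by 0.31 (adjusted p = 0.0417, up to 0.156 with 1 array left out).

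Prostaglandin genes moved in both directions. Of 12, 3 rose and 3 fell in AsPC1-R, and 3 rose and 2 fell in BxPC3-R. HPGD, which inactivates prostaglandins after uptake, fell by 1.39 in AsPC1-R (adjusted p = 8.94e-07) and rose by 1.35 in BxPC3-R (adjusted p = 1.62e-06). PTGR1, the next enzyme of that breakdown, rose by 1.07 in AsPC1-R (adjusted p = 0.000362) and fell by 1.02 in BxPC3-R (adjusted p = 0.000491). PTGS1, a cyclooxygenase, rose by 1.00 in BxPC3-R (adjusted p = 4.08e-05). Of 8 thyroid hormone genes, none rose and 1 fell in AsPC1-R, and 2 rose and 1 fell in BxPC3-R, where SLC7A8, an amino acid and thyroid hormone carrier, fell by 1.56 (adjusted p = 1.21e-07). The hormone's receptor THRB fell by 0.42 in AsPC1-R (adjusted p = 0.01, and 0.0532 without AsPC1-R replicate 2) and rose by 0.42 in BxPC3-R (adjusted p = 0.0103).

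Among 9 monoamine genes, 1 rose and 2 fell in AsPC1-R and 1 rose and 1 fell in BxPC3-R. Of the oxidases, MAOA rose by 1.09 in AsPC1-R (adjusted p = 0.00124), though both means were dim, at 6.11 in AsPC1-R and 5.02 in AsPC1. MAOB changed by -0.79 (adjusted p = 0.000709), at 8.50 in AsPC1-R and 9.29 in AsPC1. Among 6 urate genes, 1 rose and 1 fell in AsPC1-R and 2 fell in BxPC3-R. XDH, which makes urate, rose by 0.76 in AsPC1-R (adjusted p = 4.94e-05) and fell by 0.49 in BxPC3-R (adjusted p = 0.00161). Its mean in AsPC1 was dim, at 5.87. Of 10 steroid conjugate genes, 2 rose in AsPC1-R and 2 fell in BxPC3-R, where HSD17B2, which inactivates estradiol and testosterone, fell by 1.06 (adjusted p = 0.00026).

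Of 10 xenobiotic receptors and hepatic and renal transcription factors, 4 fell in each derivative and none rose, against 8.64% of all genes lower in AsPC1-R and 11% in BxPC3-R, with 2 falling in BxPC3-R without BxPC3 replicate 2. HNF4G, a hepatocyte nuclear factor, fell by 1.15 in AsPC1-R (adjusted p = 1.67e-06) and by 0.83 in BxPC3-R (adjusted p = 4.08e-05), and PPARA, the fatty acid receptor, fell by 0.51 in AsPC1-R (adjusted p = 0.00473) and by 0.73 in BxPC3-R (adjusted p = 0.000312). Of 3 scaffold genes that anchor such carriers, 1 fell in AsPC1-R, NHERF4 (-0.34, adjusted p = 0.0461, and up to 0.154 with 1 array left out), and none passed in BxPC3-R. Of 9 genes near the former SLC22A18 on chromosome 11, 1 rose and 1 fell in AsPC1-R and 1 fell in BxPC3-R, the potassium channel KCNQ1 (-0.66, adjusted p = 0.00162).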

How the data were processed

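Total RNA was amplified, labelled with biotin and read on Affymetrix arrays, per the labels' protocols. The deposited values are log2 intensities that the authors made with Affymetrix Expression Console and RMA, per the submitters' processing notes. Neither tool versions nor a genome build is given in the sources used here. Probe sets were named through GEO's platform annotation. Of 33297, 19460 had 1 symbol, 1754 had several and 12083 had none, which left 18417 genes after keeping the probe set with the highest mean per gene.

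All 12 arrays were fitted with 1 mean per group in limma 3.58.1 (R 4.3.3), with lmFit, contrasts and eBayes, two-sided, and Benjamini-Hochberg adjustment over all genes at 0.05. The residual degrees of freedom were 8 and the prior degrees 5.467. The 3 arrays per group limit the precision. No array of a group was a copy of another. The script was tested on simulated data. The difference between the lines is the change in AsPC1-R minus the change in BxPC3-R. Adjusted p-values in the text come from this fit, and values without an array from the same fit on the other 11.

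Every transporter is named. Values on each array are given for those called in a derivative and for SLC22A2, SLC22A16, SLC47A1, SLC47A2, SLCO2A1, SLCO3A1 and SLCO4A1 in any case. Called genes of the other lists were named by the size of the change, up to 3 per list and derivative. ABCC4, named in AsPC1-R, was also given in BxPC3-R. The members and lists were chosen with earlier results of these data known. Start regions come from RefSeq (GRCh38.p14), where 22 members matched 28 windows. Motifs were chosen after the values were seen. Alternatives were another quantile normalization, median centring, array weights, a trended robust prior, the replicate number as a block and the mean over probe sets. Others were a fit with just the groups compared, a filter on genes under 6.55 in every group, and each array left out.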

Additional observations from a re-analysis of the deposited data

Results flagged for a closer look

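The change in AsPC1-R against AsPC1 differed from the change in BxPC3-R against BxPC3 for 7 transporters in limma's test of the difference itself (3 arrays per group). The difference is given as AsPC1-R change minus BxPC3-R change. SLCO1B1 differed by -1.46 (adjusted p = 0.000117), with a change of -0.12 in AsPC1-R and 1.34 in BxPC3-R. SLCO4A1 differed by 1.20 (adjusted p = 7.81e-05), with 0.51 in AsPC1-R and -0.70 in BxPC3-R. SLCO3A1 differed by 0.84 (adjusted p = 0.000661), with 0.72 in AsPC1-R and -0.13 in BxPC3-R.

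SLCO4C1 differed by 0.62 (adjusted p = 0.00397), with 0.04 in AsPC1-R and -0.58 in BxPC3-R, on a probe set that was dim in every group, and by 0.53 (adjusted p = 0.0961) over the mean of its probe sets. SLC22A5 differed by 0.54 (adjusted p = 0.019, and 0.0507 without AsPC1-R replicate 3), with 0.64 in AsPC1-R and 0.10 in BxPC3-R. SLC22A4 differed by 0.53 (adjusted p = 0.0192, 0.0519 without BxPC3 replicate 3 and 0.0538 without BxPC3-R replicate 2), with increases of 1.26 in AsPC1-R and 0.72 in BxPC3-R. SLC22A11 differed by -0.40 (adjusted p = 0.0357), with -0.35 in AsPC1-R and 0.05 in BxPC3-R, and this call was lost on leaving out any 1 of 9 arrays (adjusted p from 0.0556 to 0.0854). It was kept without AsPC1 replicate 3, BxPC3 replicate 1 or BxPC3-R replicate 3. Without BxPC3 replicate 2 the differences of SLC22A4 and SLC22A5 were 0.45 each (adjusted p = 0.0499 and 0.0493).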

How the results depend on the processing

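Over the 170 pairs of a transporter and a comparison, 49 were called. Under alternatives other than left-out arrays, 355 of 371 values of called pairs stayed called, 16 were not and none changed sign, while of 855 values of pairs not called, 31 became called and 34 changed sign. With 1 array left out, 534 of 588 values of called pairs stayed called, 54 were not and none changed sign, while of 1452 values of pairs not called, 19 became called and 102 changed sign. A filter left out genes with every group mean under 6.55, the median of all values, a cutoff above the dim level of 6.23. With it, 5 transporters were called in BxPC3-R (8 without it), since SLCO1B1, SLCO2A1 and SLCO4C1 were not tested. Array weights gave 6356 called genes in BxPC3-R against 3826 without weights, and 11 transporters whose change differed between the lines against 7. The cause was not tested.

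Leaving out 1 array gave 5 to 9 transporters (2869 to 4246 genes in all) for AsPC1-R against AsPC1, 5 to 8 (2970 to 4181) for BxPC3-R against BxPC3, 5 to 8 (3961 to 5296) for changes that differed between the lines, 12 to 18 (7729 to 9899) for AsPC1 against BxPC3 and 10 to 12 (7138 to 8322) for AsPC1-R against BxPC3-R. Where an array is left out, its group has 2 arrays and the spread is pooled over the groups.

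Centring arrays on their medians moved the share of called genes that were higher to 56.7% from 46.9% in BxPC3-R, and to 44.4% from 55.4% for the difference between the lines, while transporters called there numbered 7 (3 higher and 4 lower) and 7 (5 and 2).

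The replicate numbers did not pair the samples, with correlations of same-numbered arrays of -0.24 to -0.03 between AsPC1-R and AsPC1 and -0.09 to 0.17 between BxPC3-R and BxPC3. With the replicate number as a block, transporters called numbered 8 for AsPC1-R against AsPC1, 7 for BxPC3-R against BxPC3, 7 for the change that differed, 15 for AsPC1 against BxPC3 and 11 for AsPC1-R against BxPC3-R. SLC22A23 in BxPC3-R (adjusted p = 0.0564) and SLC22A8 between AsPC1 and BxPC3 (adjusted p = 0.0521) were lost.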

Other observations

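LCN2, the iron-binding lipocalin for which SLC22A17 is described as a receptor, was chosen after its values were seen. It averaged 12.31 ± 0.03 in AsPC1-R, 11.26 ± 0.19 in AsPC1, 10.23 ± 0.20 in BxPC3-R and 12.60 ± 0.13 in BxPC3 (SD, n = 3 each). In limma's fit it rose by 1.05 in AsPC1-R (SE 0.12, adjusted p = 2.04e-05) and fell by 2.37 in BxPC3-R (SE 0.12, adjusted p = 1.16e-08), while SLC22A17 passed in neither derivative.

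Of 6 fibroblast markers, 1 passed in each derivative, against 20.3% of all genes in AsPC1-R and 20.8% in BxPC3-R. This was LUM, the proteoglycan lumican, which averaged 10.51 in AsPC1-R and 11.55 in AsPC1, and 6.45 in BxPC3-R and 4.91 in BxPC3. Of 5 leukocyte markers, 1 rose in AsPC1-R, against 11.6% of all genes. In BxPC3-R 2 fell, or 1 without BxPC3 replicate 2, against 11% of all genes. The call lost without that array was CD3E (adjusted p = 0.0786), which was dim in BxPC3-R and BxPC3. CD68, a lysosomal protein of macrophages, averaged 10.83 in AsPC1-R and 10.11 in AsPC1, and 8.53 in BxPC3-R and 9.25 in BxPC3. Their part in the transporter results was not tested.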
